A study of Homo sapiens with 6 samples.

Results

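Transcript levels of 10 genes were compared between lenvatinib-sensitive and lenvatinib-resistant liver cancer cells. The genes are the Fos family members FOS, FOSB, FOSL1 and FOSL2, the Jun family members JUN, JUNB and JUND, the related subunit ATF3, and the immediate early genes EGR1 and IER3. They were taken by symbol from the 24432 symbols of the deposited tables, and all 10 were present. The data are 6 bulk RNA-seq libraries of PLC/PRF/5, an established line from a human hepatocellular carcinoma. The 3 sensitive libraries carry the genotype label WT and the treatment label control. The 3 resistant libraries carry the genotype label Lenvatinib resistant and the treatment label Lenvatinib, a kinase inhibitor of VEGF and FGF receptors. Per the labels, resistant cells were selected in rising lenvatinib from 20 µmol/L to 40 mmol/L, in steps of 0.5 mmol/L, units that do not match each other. Serum is given as 10% for both groups. A medium change (48 h) and a confluence (90%) are given for resistant cells only, so these conditions cannot be compared between the groups. The labels name a single resistant derivative, and they do not say whether the drug was present at harvest, so drug exposure and resistance cannot be told apart. Nothing in them says that each replicate had its own culture, and p-values therefore reflect the spread of these libraries and that spread may be technical.

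AP-1 is a family of dimers of basic leucine zipper (bZIP) proteins. Jun proteins pair with themselves or with Fos proteins, whereas Fos proteins need a Jun partner, and the dimers bind the sequence TGANTCA. FOS, FOSB, JUNB, EGR1 and IER3 are classic immediate early genes, switched on briefly by growth factors without new protein synthesis, largely through ERK and the serum response factor SRF, which binds the CArG box. FOSL1, which encodes FRA-1, accumulates later and more lastingly under ERK signaling and is itself an AP-1 target. In the liver, JUN is required for regeneration and for the early stages of tumor formation in mice.

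In resistant cells FOSL1, JUN, ATF3, FOSL2, FOSB and IER3 rose and JUNB fell. FOSB was tested only because it reached 1 FPKM in the resistant libraries, so its direction was set by the filter for testing. JUND and EGR1 did not pass the test, and FOS lay below the filter for testing. The largest rise was that of FOSL1, from 3.31 ± 2.38 to 187 ± 15.0 FPKM (mean ± SD, n = 3 per group here and below), followed by JUN, from 8.30 ± 2.08 to 130 ± 6.74 FPKM. FPKM, a unit inferred here from the values, scales reads or fragments to transcript length and library size. Levels of different genes are compared below on that basis. Of the 9 tested genes 6 rose, 1 fell and 2 did not pass. The threshold was 0.05 for limma's p after Benjamini-Hochberg adjustment over all tested genes. Of all 11694 tested genes, 67.7% passed in either direction, 35.2% as higher and 32.5% as lower. The 9 genes had a median log2 fold change of 1.53, against 0.08 over all tested genes. That median is the value of FOSB, the gene whose direction the filter set. The 2 groups did not overlap for 7 of the 9 genes, against 74.4% of all tested genes, with 6 higher (39.3% of all) and 1 lower (35.1%). With this background a call alone says little, and the values below carry the description.

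Promoter windows in the RefSeq table (GRCh38.p14) were matched for 8 of the 10 genes, 9 windows in all, since ATF3 has 2 start sites. FOSL1 and IER3 had none. The 250 bases upstream of the start of 4 genes are shown because JUN and ATF3 share a TGACATCA match, JUNB is the gene that fell, and EGR1 holds the CArG boxes of the classic immediate early response. Each runs 5′ to 3′ on the gene's strand, and capitals mark matches to TGANTCA, TGACGTCA, TGACATCA, the CArG box, GCGNGGGCG (an EGR1 site) or TATAAA, searched on both strands.
JUN, chr1:58784048-58784297, minus strand: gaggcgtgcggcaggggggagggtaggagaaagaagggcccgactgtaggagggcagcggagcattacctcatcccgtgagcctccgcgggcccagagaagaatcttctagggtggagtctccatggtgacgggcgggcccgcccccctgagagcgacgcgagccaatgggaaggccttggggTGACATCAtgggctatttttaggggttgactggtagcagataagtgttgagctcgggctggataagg
ATF3, first start, chr1:212565157-212565406, plus strand: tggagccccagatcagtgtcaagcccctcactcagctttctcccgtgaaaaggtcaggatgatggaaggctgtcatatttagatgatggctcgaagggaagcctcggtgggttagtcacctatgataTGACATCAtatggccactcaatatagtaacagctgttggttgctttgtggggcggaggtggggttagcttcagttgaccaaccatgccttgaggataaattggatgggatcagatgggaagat
JUNB, chr19:12791236-12791485, plus strand: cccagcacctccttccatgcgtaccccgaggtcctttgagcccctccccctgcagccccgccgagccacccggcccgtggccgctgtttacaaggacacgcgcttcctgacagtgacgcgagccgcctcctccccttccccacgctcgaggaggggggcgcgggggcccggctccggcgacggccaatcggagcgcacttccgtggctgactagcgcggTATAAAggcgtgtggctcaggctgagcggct
EGR1, chr5:138465229-138465478, plus strand: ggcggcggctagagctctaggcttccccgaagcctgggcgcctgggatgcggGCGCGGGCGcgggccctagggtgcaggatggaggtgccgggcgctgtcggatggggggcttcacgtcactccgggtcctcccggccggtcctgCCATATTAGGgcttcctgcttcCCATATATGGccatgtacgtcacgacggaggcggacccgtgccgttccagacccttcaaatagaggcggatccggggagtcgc

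In these windows, which reach from 250 bases before to 50 bases after the start, the TGACATCA of JUN lay at -67 to -60 and that of ATF3 at -123 to -116. The other genes with a window lacked it, FOSB and FOSL2, which rose, as well as JUNB and JUND. This motif is held by 2.61% of all 35116 windows. JUND held TGACGTCA, a cyclic AMP response element, at -200 to -193 (1.85% of all windows). FOSL2 held a match to the AP-1 motif, TGACTCA, at 5 to 11 downstream of its start. The motif TGANTCA occurs in 7.71% of all windows. EGR1 held CArG boxes at -105 to -96 and at -83 to -74, and CArG boxes occur in 1.29% of all windows. It also held GCGCGGGCG at -198 to -190, and GCGNGGGCG occurs in 9.43%. TATAAA (11.5% of all windows) lay within 33 bases of the start of FOS, FOSB and JUNB and farther upstream at the second start of ATF3, and FOS, FOSB and JUNB held none of the other motifs. A match is a string in the reference and not a measured site. Bases beyond these windows were not searched, for FOS or any other gene, so a motif farther upstream would be missed.

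Across the series, 11694 of 24432 symbols reached 1 FPKM in at least 3 libraries. The spacing of low values gave an estimated depth of 38800000 to 40080000 reads or fragments per library, with 51.4% to 57.0% of low values within 0.1 of a whole count, and the groups overlapped in it. Sensitive replicate 3 stood apart, with a Pearson's r across genes as low as 0.952 to the other sensitive libraries, against 0.995 between sensitive replicates 1 and 2, and the groups correlated at 0.680 to 0.706. Hepatocyte markers, summed over 11 genes, were at 3671 to 3932 FPKM in the sensitive libraries and at most at 34.0 FPKM in the resistant ones. Of these markers 10 in sensitive and 4 in resistant cells had a mean of at least 1 FPKM, so the defining markers of the labelled cell type were largely absent from the resistant libraries, and HNF4A was at most 0.0999 FPKM there. Whether both groups are the same line was not tested, and every fold below compares the libraries as labelled. Resistant replicate 2 had the highest sum of these markers in its group. Summed markers of fibroblasts (7 genes) and endothelium (6 genes) stayed at or below 1.84 FPKM in every library, and the leukocyte marker PTPRC was listed at 0. The leukocyte list (6 genes) summed to 252 to 271 FPKM in sensitive and 10.2 to 13.8 in resistant cells, most of it LYZ in the sensitive libraries. The cholangiocyte list (7 genes) summed to 37.6 to 44.2 and 126 to 144 FPKM. These lists moved with the groups, and their part in the results below was not tested. In bulk RNA, fewer cells of a type and less RNA per cell cannot be told apart.

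The Fos family was carried by FOSL1 in resistant cells. FOSL1 had 1.56, 2.36 and 6.02 FPKM in the sensitive libraries (replicates 1, 2 and 3, the order used throughout) and reached 200.03, 191 and 171 FPKM in resistant replicates 1, 2 and 3. Every resistant library lay far above every sensitive one, and sensitive replicate 3 was the highest of its group. The mean was 56.6-fold higher in resistant cells, and 95.7-fold without sensitive replicate 3. On the log2(FPKM + 1) scale, used for all tests and understating the change of low genes, the rise was 5.58 (SE 0.350, adjusted p = 1.3e-05 in limma). Among tested genes FOSL1 stood above 30.7% by mean level in sensitive cells and above 97.5% in resistant cells.

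FOSL2, which encodes FRA-2, a subunit of longer-lasting AP-1 dimers, was at 4.004, 4.21 and 6.62 FPKM in sensitive and 27.3, 26.2 and 27.2 FPKM in resistant replicates. The groups did not overlap, and the resistant libraries lay closer together than the sensitive ones. Its log2 fold change was 2.26 (SE 0.178, adjusted p = 3.9e-05 in limma), a 5.44-fold higher mean. FOSB, an early subunit, was at 0.354, 0.310 and 0.888 FPKM in sensitive and 3.76, 3.71 and 2.63 FPKM in resistant replicates. It reached the 1 FPKM minimum in resistant libraries only, which fixed its direction, and its level stayed low. Its log2 fold change was 1.53 (SE 0.183), with an adjusted p of 0.00177 in limma when no filter was applied, and its mean was 6.50-fold higher, or 10.1-fold without sensitive replicate 3.

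FOS, the founding member of the family, was nearly silent in both states. It was at 0.959, 0.474 and 1.39 FPKM in sensitive and 0.813, 0.700 and 0.518 FPKM in resistant replicates. The groups overlapped, and 1 library reached 1 FPKM, so FOS was not tested in the fit of filtered genes. With no filter its log2 difference was -0.19 (adjusted p = 0.471 in limma). The ratio of FOSL1 to FOS was 1.62, 4.98 and 4.34 in the sensitive and 246, 273 and 329 in the resistant libraries.

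**Figure D1:**
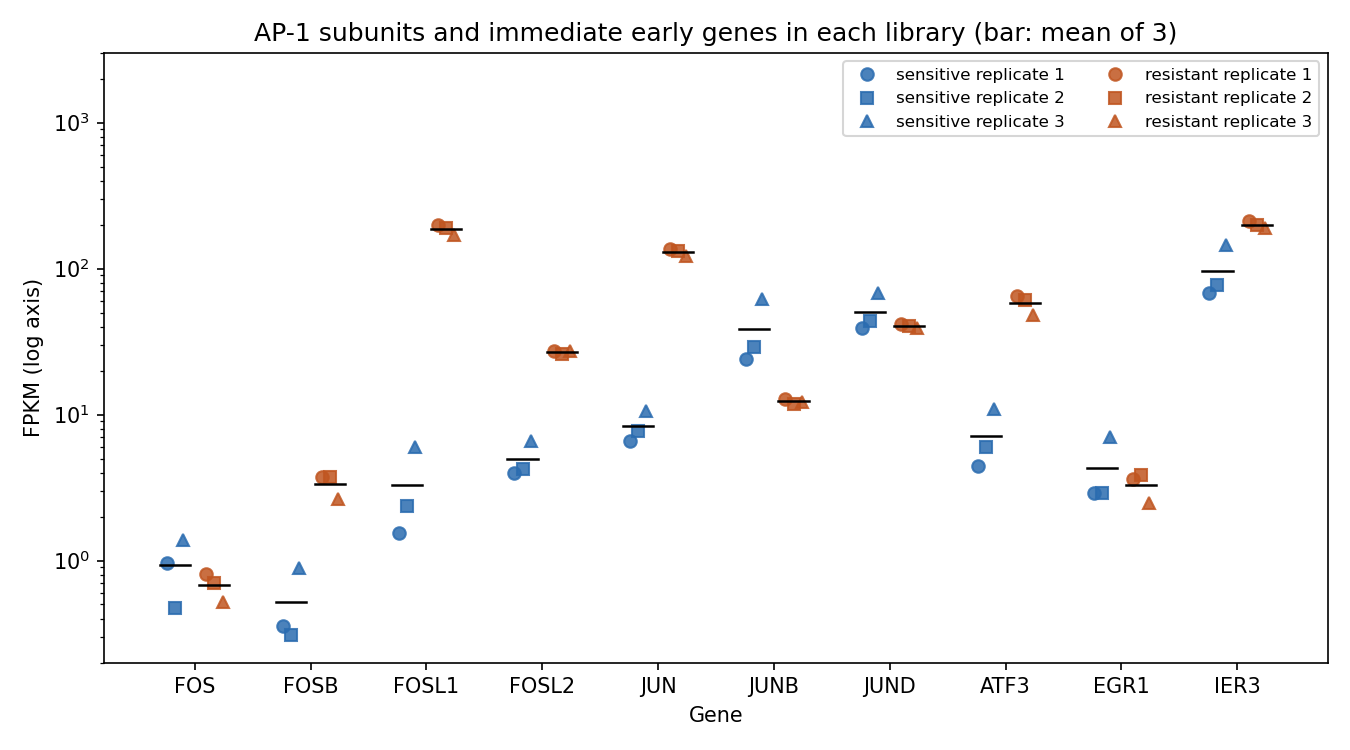
FPKM on a log axis for each of the 10 genes, with 1 point per library (blue sensitive, orange resistant, shape by replicate) and a black bar at the mean of 3. FOSL1 and JUN lie above 100 FPKM in every resistant library and at most at 10.6 FPKM in every sensitive one, JUNB lies lower in resistant cells, and FOS, JUND and EGR1 overlap.

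The Jun family split. JUN, the strongest transactivator of the family, was at 6.59, 7.71 and 10.6 FPKM in sensitive and 135, 133 and 123 FPKM in resistant replicates. The groups were separated by more than 100 FPKM. The log2 fold change was 3.84 (SE 0.167, adjusted p = 2.53e-06 in limma) and the mean 15.7-fold higher.

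JUNB, which can oppose JUN at promoters and restrain proliferation, moved the other way. It was at 24.0, 29.2 and 62.4 FPKM in sensitive and 12.8, 11.8 and 12.2 FPKM in resistant replicates. All resistant libraries lay below all sensitive ones, by less than the range of the sensitive group. The log2 fold change was -1.45 (SE 0.329, adjusted p = 0.00683 in limma), and -1.05 without sensitive replicate 3 (adjusted p = 1.95e-05). With each library left out in turn, the adjusted p of JUNB in limma ran from 1.95e-05 to 0.0291. In the GENCODE release 29 annotation exons of JUNB overlap those of HOOK2 on the opposite strand. Since the strand setting is not given in the sources used here, reads of the pair cannot be told apart. HOOK2 was at 3.80 to 4.90 FPKM in sensitive and 1.73 to 1.78 FPKM in resistant libraries, below JUNB in all 6.

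JUND, the most constitutive Jun gene, did not pass the test. It was at 39.3, 43.4 and 67.5 FPKM in sensitive and 42.1, 40.3 and 39.0 FPKM in resistant replicates. Sensitive replicate 3 was the library out of range, and the others lay between 39.0 and 43.4 FPKM. The log2 fold change was -0.26 (95% interval -0.74 to 0.22, adjusted p = 0.282 in limma), and -0.03 without that library (adjusted p from 0.105 to 0.715 with each library left out). The ratio of JUN to JUNB was 0.275, 0.264 and 0.170 in the sensitive libraries and 10.6, 11.3 and 10.0 in the resistant ones, so the more abundant of the pair was JUNB in every sensitive and JUN in every resistant library. The ratio of JUN to JUND went likewise from 0.157 to 0.177 in sensitive to 3.15 to 3.30 in resistant libraries.

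Summed over the 7 Fos and Jun genes, the pool was 76.8, 87.7 and 155 FPKM in sensitive and 422, 407 and 375 FPKM in resistant replicates. These sums and shares describe transcripts, and proteins and dimers were not analysed here. In sensitive cells JUND held 48.1% ± 4.10 of the pool, JUNB 34.9% ± 4.67 and JUN 8.07% ± 1.08, while FOSL2 held 4.76% ± 0.479 and FOSL1 2.86% ± 0.934. In resistant cells FOSL1 held 46.6% ± 0.981 and JUN 32.5% ± 0.366, ahead of JUND at 10.1% ± 0.268, FOSL2 at 6.72% ± 0.470 and JUNB at 3.07% ± 0.183. FOS and FOSB together never reached a large part, with FOS at 0.894% ± 0.354 and 0.168% ± 0.0275 and FOSB at 0.462% ± 0.109 and 0.835% ± 0.117 in sensitive and resistant cells.

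The balance of the families turned with the pool. Fos family transcripts made up 8.95%, 8.39% and 9.60% of it in the sensitive libraries and 54.9%, 54.5% and 53.6% in the resistant ones. Summed Jun transcripts were 10.2, 10.9 and 9.42 times the Fos transcripts in sensitive and 0.821, 0.835 and 0.865 times in resistant replicates. Sensitive replicate 3 had the highest summed level of its group, and within it JUNB held more of the pool (40.1%) and JUND less (43.5%) than in the other sensitive libraries. Within the Fos family the leading gene was FOSL2 in each sensitive library (44.4% to 58.3%) and FOSL1 in each resistant one (84.9% to 86.3%). Within the Jun family it was JUND in sensitive (48.1% to 56.3%) and JUN in resistant libraries (70.5% to 71.8%). Since these shares are scores over a chosen set of genes, no p is given.

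**Figure D2:**
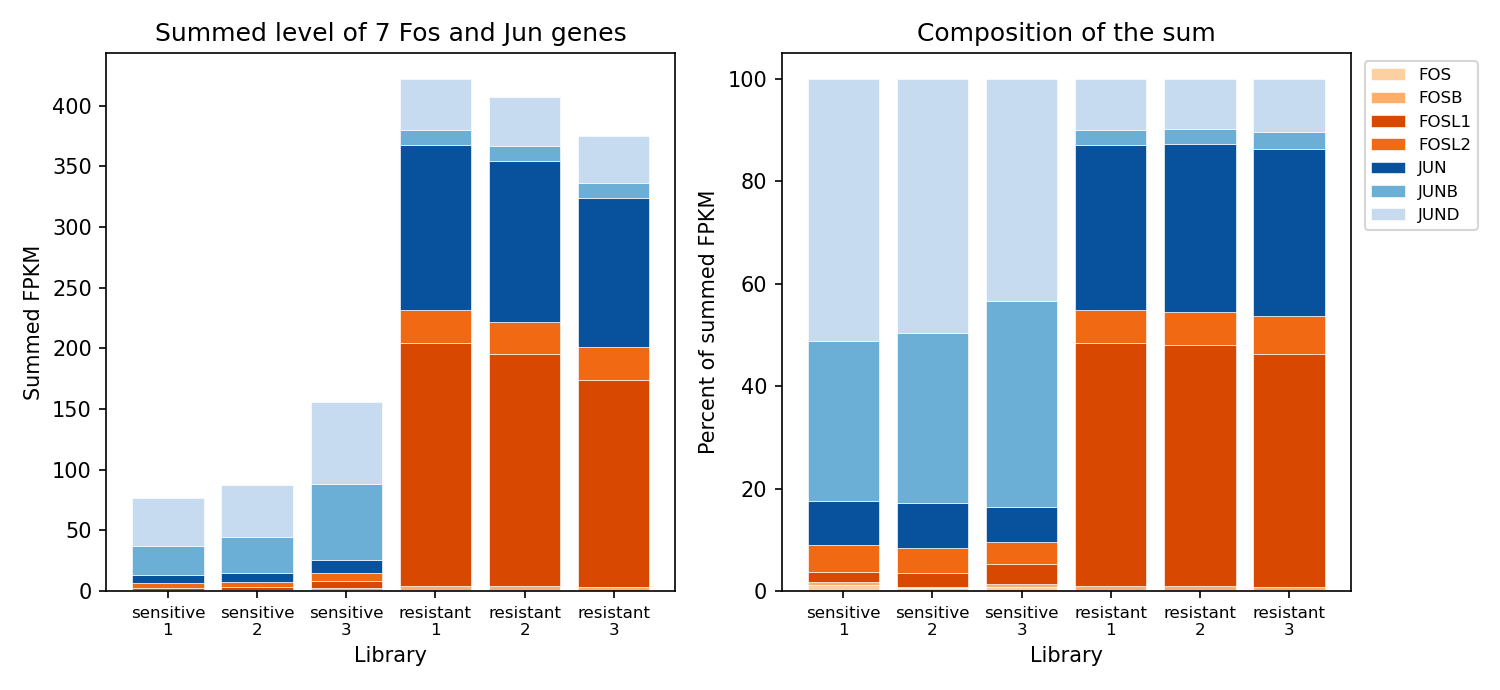
Stacked bars of the 7 Fos (orange) and Jun (blue) genes in each of 6 libraries, as summed FPKM on the left and as percent of the sum on the right. The sensitive bars are mostly JUND and JUNB, and the resistant bars are mostly FOSL1 and JUN, with the same order in each of the 3 replicates.

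ATF3, a stress-induced subunit that pairs with Jun proteins, was at 4.45, 5.97 and 10.9 FPKM in sensitive and 65.2, 60.5 and 47.9 FPKM in resistant replicates. The groups did not overlap, and ATF3 was above JUND in every resistant library and below it in every sensitive one. Its log2 fold change was 2.93 (SE 0.289, adjusted p = 0.000118 in limma) and its mean 8.16-fold higher. The ratio of ATF3 to JUN was 0.676, 0.774 and 1.02 in sensitive and 0.482, 0.455 and 0.391 in resistant libraries, so the share of ATF3 relative to JUN was lower in each resistant library although both genes rose.

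The immediate early genes outside AP-1 were not uniform. EGR1, a zinc finger factor that reports recent ERK and SRF activity, was at 2.89, 2.92 and 7.05 FPKM in sensitive and 3.61, 3.84 and 2.46 FPKM in resistant replicates. The groups overlapped. The log2 fold change was -0.22 (95% interval -0.96 to 0.51, adjusted p = 0.541 in limma), and 0.12 without sensitive replicate 3 (adjusted p = 0.46, and from 0.316 to 0.872 with each library left out), so its direction depended on that library. IER3, an early gene that modulates survival and ERK signaling, was the highest of the 10 in sensitive cells, at 68.0, 77.0 and 145 FPKM, against 212, 198 and 190 FPKM in resistant replicates. Every resistant library was above every sensitive one, with the nearest pair at 145 and 190 FPKM. Its log2 fold change was 1.12 (SE 0.272, adjusted p = 0.00893 in limma), which did not pass when tested against a 1.5-fold change (adjusted p = 0.108). Exons of IER3 overlap the antisense gene IER3-AS1, at 0.973 to 4.39 FPKM over the 6 libraries, and the pair cannot be told apart without strand.

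The order of levels changed between the states. In sensitive cells IER3 was followed by JUND and JUNB, which overlapped, and after a gap by JUN, ATF3, FOSL2, EGR1 and FOSL1, in which each neighbour overlapped the next. FOS and FOSB, also overlapping, came last. In resistant cells IER3 and FOSL1 overlapped at the top. JUN, ATF3, JUND, FOSL2, JUNB and FOSB followed with no overlap up to FOSB, which overlapped EGR1, with FOS last. Overlap here compares ranges over the libraries of a group. Library by library, of these neighbours only JUN with ATF3 and FOSL2 with EGR1 in sensitive, and FOSB with EGR1 in resistant cells, changed order.

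Replicates of the sensitive state did not agree on these genes. All 10 genes were highest in sensitive replicate 3, whereas 37.8% of all tested genes were. The ratio of that library to the mean of the other 2 ran from 1.49 for JUN to 3.07 for FOSL1, against a median of 0.899 and a 95th percentile of 1.96 over tested genes. FOSB (2.67), EGR1 (2.43), JUNB (2.35), ATF3 (2.09) and IER3 (2.00) also exceeded that percentile, while FOS (1.93), JUND (1.63) and FOSL2 (1.61) did not. For the 6 genes that rose, sensitive replicate 3 thus lay nearer the resistant libraries, and for JUNB it lay farther from them. In the resistant group the differences were smaller but also shared, with 9 of 10 genes highest in replicate 1 (27.9% of tested genes) and 8 of 10 lowest in replicate 3 (29%). The coefficient of variation reached 71.8% for FOSL1 in the sensitive group and was at most 22.2% for any of the genes in the resistant group. All 7 calls were the same with each library left out in turn.

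**Figure D3:**
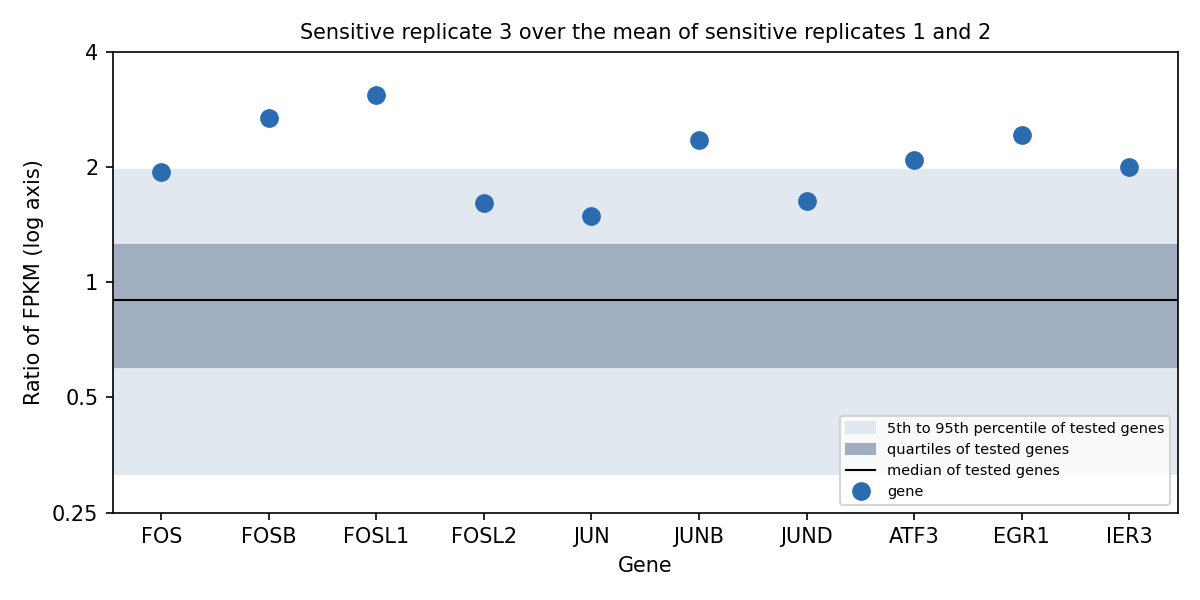
Ratio of FPKM in sensitive replicate 3 to the mean of sensitive replicates 1 and 2, on a log axis, for each of the 10 genes (points), with the median, quartiles and 5th to 95th percentiles of all tested genes as a line and bands. Every point lies above the upper quartile of 1.25, from 1.49 for JUN to 3.07 for FOSL1.

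Genes that work beside AP-1 were counted by list, and each count stands against the 35.2% of all tested genes that rose and the 32.5% that fell. Among other bZIP genes, 13 of 30 tested rose, 8 fell and 9 did not pass, with a median log2 fold change of 0.44. That is 43.3% higher and 26.7% lower, 70% called against 67.7% of all tested genes, and 2 of those that fell reached 1 FPKM in sensitive libraries only. MAFF, a small Maf protein, rose from 13.1 ± 8.07 to 115 ± 8.74 FPKM (log2 3.19, adjusted p = 0.000207 in limma). ATF5 rose by 2.09 and the stress factor DDIT3 by 2.04 on the log2 scale, while the hepatocyte factor CEBPA fell from 27.4 ± 3.75 to 2.70 ± 0.235 FPKM (-2.94). DDIT3 had 167 FPKM in sensitive replicate 3, against 33.6 and 37.1 in the others, and its call was lost without sensitive replicate 2 (adjusted p = 0.059), resistant replicate 1 (0.06) or resistant replicate 2 (0.0551), and against a 1.5-fold change (0.0587). Counting ATF3, BATF, BATF2, BATF3 and JDP2 into a pool of 12 genes, ATF3 held 5.72% ± 0.556 in sensitive and 12.2% ± 1.08 in resistant cells. BATF3 held 3.71% ± 1.76 and 1.80% ± 0.224, and BATF was listed at 0 in every resistant library.

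Other immediate early genes also went both ways, with 13 of 28 tested higher, 6 lower and 9 not past the test (median log2 0.47). The 67.9% called is the share over all tested genes (67.7%) to within 1 percentage point, and 1 of those that rose reached 1 FPKM in resistant libraries only. KLF4, a zinc finger factor of growth arrest and epithelial identity, rose from 4.84 ± 2.88 to 108 ± 3.15 FPKM (log2 4.33, adjusted p = 2.24e-05 in limma). ZFP36L1, which promotes decay of AU-rich mRNAs, rose by 3.25 and KLF6 by 3.13. NR4A1, an orphan nuclear receptor induced within minutes by growth factors, fell from 31.3 ± 21.6 to 1.63 ± 0.119 FPKM (-3.43, adjusted p = 0.000294). Its level in sensitive replicate 3 was 56.2 FPKM, against 18.8 and 18.9 in the others. Of these 28 genes 17 were highest in that library among the sensitive ones, and of the 30 other bZIP genes 19 were, against 37.8% of all tested genes. In the lists below it was 5 of 12, 5 of 18, 4 of 16 and 9 of 25 genes.

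Of 12 SRF cofactors, SRF targets and EGR corepressors 8 rose, 1 fell and 3 did not pass (median log2 0.74). The 66.7% that rose stand against 35.2% of all tested genes, and 2 of the 8, FHL2 and ACTA2, reached 1 FPKM in resistant libraries only, which set their direction. ACTA2, named after its values were seen, was listed at 0 in every sensitive library. The ternary complex factors ELK3 and ELK1, which bind beside SRF at CArG boxes, rose from 3.71 ± 1.70 to 33.2 ± 3.02 FPKM (log2 2.93) and from 25.3 ± 4.33 to 58.0 ± 2.36 FPKM (1.18). FHL2, a LIM domain cofactor of SRF and AP-1, rose from 0.263 ± 0.0453 to 22.6 ± 3.00 FPKM (4.22), although it reached 1 FPKM in resistant libraries only. NAB2, which EGR1 induces and which represses EGR1, fell from 27.2 ± 14.2 to 12.5 ± 1.07 FPKM (-0.96, adjusted p = 0.0313 in limma). That call was lost when any of resistant replicates 1, 2 and 3 was left out (adjusted p = 0.0875, 0.0921 and 0.0713) and with no filter (0.0658) or against a 1.5-fold change (0.293), and without sensitive replicate 3 the difference shrank to -0.57 on the log2 scale. The list had 2 lower genes without sensitive replicate 3, where 4704 of all tested genes were lower, against 3803 with it. SRF itself did not pass, at a log2 fold change of 0.11.

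The JNK and p38 list held these kinases, their upstream kinases and scaffolds, and the downstream kinases MAPKAPK2 and MAPKAPK3. Of its 18 tested genes 9 rose, 3 fell and 6 did not pass (median log2 0.31). MAPKAPK2 and MAPKAPK3 were among those that rose, by 0.45 and 1.04 on the log2 scale. The 66.7% called stand against 67.7% of all tested genes, and 1 of those that rose reached 1 FPKM in resistant libraries only. Without sensitive replicate 3, 7 of the list fell, and so did 4704 of all 11694 tested genes, against 3803 with it. MAP2K3, which activates p38, rose from 26.5 ± 7.55 to 143 ± 13.8 FPKM (log2 2.41, adjusted p = 4.53e-05 in limma). The p38 kinase gene MAPK11 rose by 1.57 and the JNK scaffold gene MAPK8IP1 by 1.49. The genes that fell were MAP3K11, by 1.70, and MAPK14 (-0.87) and MAPK9 (-0.54), the last pair named after their values were seen. MAPK8, the gene of JNK1, also named after its values were seen, rose by 1.48, so the JNK genes MAPK8 and MAPK9 moved in opposite directions.

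Of 16 tested genes that limit AP-1 or modify it 7 rose, 3 fell and 6 did not pass (median log2 0.46). The 62.5% called stand against 67.7% of all tested genes, and 2 of those that rose reached 1 FPKM in resistant libraries only. TRIB3, a pseudokinase that binds bZIP factors, rose from 25.3 ± 26.7 to 142 ± 13.1 FPKM (log2 2.91, adjusted p = 0.00515 in limma), with 56.1 FPKM in sensitive replicate 3 against 9.80 and 10.1 in the others. ITCH, a ubiquitin ligase of JUN and JUNB, rose by 1.73 on the log2 scale. RPS6KA3, whose kinase phosphorylates FOS, fell by 1.91. The other genes that fell, named after their values were seen, were HDAC3 (-0.76) and COP1 (-0.65), a ubiquitin ligase subunit that degrades JUN.

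Of 25 tested textbook targets of AP-1, 21 rose and 4 fell, with a median log2 fold change of 2.52. Of all tested genes 35.2% rose and 32.5% fell. The list was written with earlier results of these data known, and 10 of its tested genes passed the filter through 1 group alone, so the count is a description. PLAU, the urokinase gene, was at 0.664, 0.675 and 0.558 FPKM in sensitive and 949, 961 and 760.0 FPKM in resistant replicates (log2 9.08). The cytokine genes IL6 and LIF rose by 8.02 and 7.31 on the log2 scale. PLAU, IL6 and LIF reached 1 FPKM in resistant libraries only. The 4 that fell, named after their values were seen, were NTS (-5.32), GJA1 (-4.29, above 1 FPKM in sensitive libraries only), SPHK1 (-1.02) and KRT18 (-0.61). The collagenase gene MMP1, also chosen after its values were seen, was listed at 0 in all sensitive libraries, and resistant replicates 1, 2 and 3 had 3.11, 3.39 and 4.06 FPKM.

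**Figure D4:**
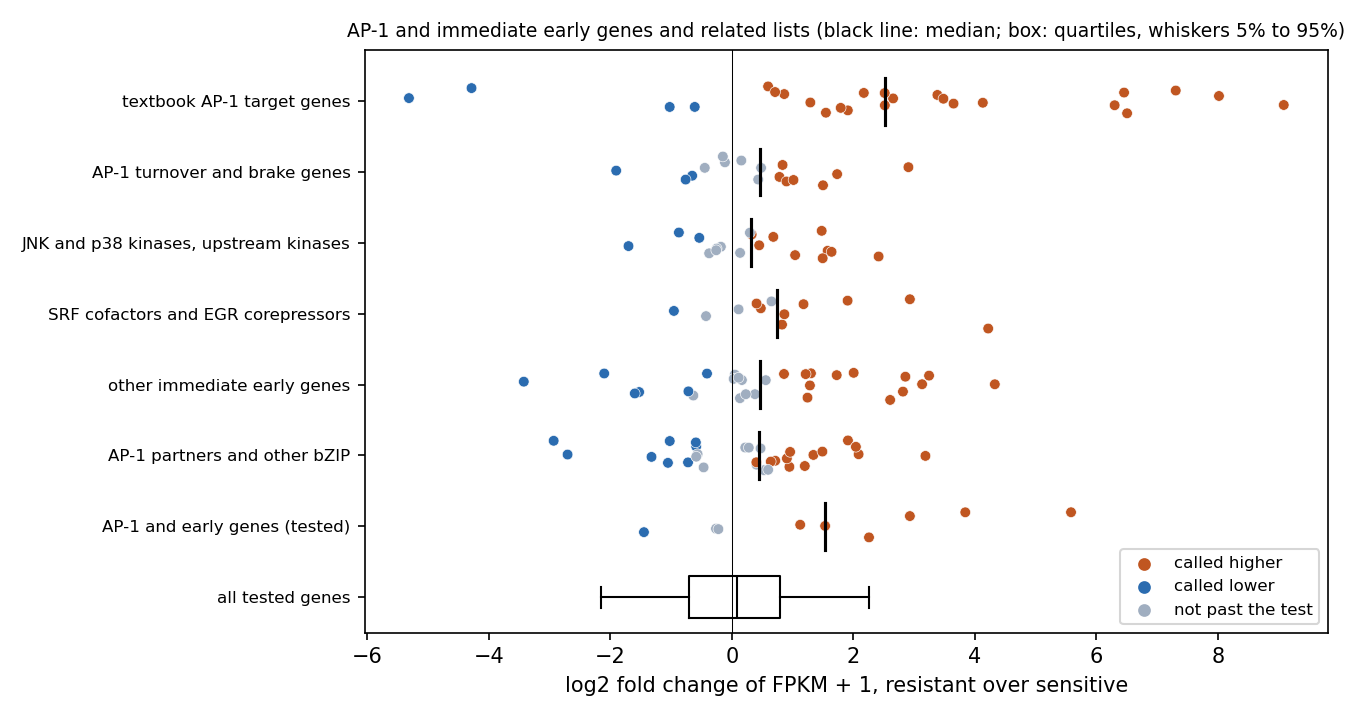
Log2 fold change (resistant over sensitive, on FPKM + 1) of each tested gene, in rows for the AP-1 and immediate early genes and for 6 related lists, colored by call, with black lines at medians and, at the bottom, a box of quartiles with 5% to 95% whiskers over all 11694 tested genes. The medians run from 0.31 for the JNK and p38 list to 2.52 for the textbook targets, against 0.08 over all tested genes, and every row holds genes on both sides of 0.

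Promoter motifs over all tested genes were counted the same way. Of 9466 tested genes with a window 34.3% rose and 32.6% fell (median log2 0.07). Of 632 genes with a TGANTCA match 44.1% rose and 29.6% fell (median 0.28). The 145 genes with a CArG box gave 43.4% and 29.7% (median 0.24), and the 175 with TGACATCA gave 40.6% and 29.7% (0.22). For TATAAA the shares were 40.1% and 31.9% of 740 genes (0.22), for TGACGTCA 36.1% and 27.8% of 374 and for GCGNGGGCG 38.3% and 29.1% of 1899 genes. The share that rose was thus higher than over all windows for each of the 6 motifs, TATAAA (the TATA box) included.

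By Pearson's r of log2(FPKM + 1) over the 6 libraries, the patterns most like FOSL1 were those of MTHFD2, a mitochondrial folate enzyme (r = 0.99998), the amino acid transporter SLC7A1 (0.99994) and LURAP1L (0.99984). The most opposed were DIPK1A (-0.99982), MPZL2 (-0.99977) and TRIM71 (-0.99971). The libraries form 2 groups, which sets most of r, and 432 tested genes exceeded 0.99. MTHFD2 was at 23.9, 27.0 and 36.2 FPKM in sensitive and 134, 132 and 126 FPKM in resistant replicates, with the same rank of libraries as FOSL1.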

How the data were processed

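RNA-seq of 6 libraries was used, 3 sensitive and 3 resistant, with groups and replicate numbers from the sample titles. For each library the authors deposited a table of symbols with values that appear already scaled to transcript length and library size, a unit inferred here as FPKM because their sums differ between libraries (366048 to 475088), and RPKM cannot be told apart from it. The submitters' processing notes name cutadapt and HISAT2. Tool versions, counting program, genome build and strand setting: not given in the sources used here.

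Genes reaching 1 FPKM in 3 or more libraries were tested with limma 3.58.1 (limma-trend, two-sided) in R 4.3.3 on log2(FPKM + 1), a pseudocount of 1, with group as the only factor and Benjamini-Hochberg adjustment over every gene tested. Residual degrees of freedom were 4 and prior degrees 2.75. The procedure was tested on simulated data with the means and spread of the resistant libraries only, so the wider spread of the sensitive group was not simulated. Python 3.11.15 with pandas 2.3.3, numpy 2.4.6 and matplotlib 3.10.9 served for motif counts and plots. Depth was read from the spacing of low values of single-transcript genes of GENCODE release 29. No read counts were used.

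The 10 genes and the lists were chosen with earlier results of these data known. Named genes are the 10, up to 4 called genes of each of 6 lists with a mean of at least 5 FPKM, by size of change, and the 3 patterns most like and most opposed to FOSL1. Alternatives were another pseudocount (0.1), no filter or a mean of at least 5 FPKM, scaling to the geometric mean sample, quantile normalization, limma without the trend or robust, a replicate block, a test against a 1.5-fold change, other pools and each library left out. Leaving each library out for the lists was chosen after seeing the data. Values of 2 of the genes this rule names are not reported here. Protein sequences are not analysed here.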

Additional observations from a re-analysis of the deposited data

How the results depend on the processing

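The 6 higher and 1 lower calls among the 10 genes stayed 6 and 1 under every alternative run, except 5 higher with a mean of at least 5 FPKM, where FOSB was not tested, and against a 1.5-fold change, where IER3 did not pass. Over all genes these settings gave 2465 and 2217 higher and 2508 and 2140 lower, against 4117 and 3803. The replicate block gave 6 higher and 1 lower among the 10 genes, and 3716 higher and 3477 lower over all. Replicate numbers gave no sign of pairing the samples. Deviations of same-numbered libraries correlated at -0.42, 0.07 and -0.23, and 0 of 6 samples correlated best with their own number. With so few libraries per group, and sensitive replicate 3 apart from the others, this cannot show that the samples were unpaired. With a mean of at least 5 FPKM, 4 bZIP genes were lower and 5 SRF and EGR cofactors higher, as fewer genes were tested. With the 1 FPKM filter and all 6 libraries, each of these counts was 8. Leaving out 1 library gave 3 to 7 lower JNK and p38 genes (7 without sensitive replicate 3), and 0 to 2 lower SRF and EGR cofactors (2 without that library, 0 without any 1 resistant library). Over all tested genes the number lower was 4704 without sensitive replicate 3 and 3207 to 3368 without 1 resistant library. Higher calls moved too, with 9 to 17 bZIP genes and 12 to 19 other immediate early genes when 1 library was left out. Over all tested genes that number ran from 3468 to 4738. All of these were at their most without sensitive replicate 3. In the pool of 12 genes, the Fos family held 7.87% in sensitive and 46.3% in resistant cells. There FOSL2 and JUND held 4.17% and 42.1% in sensitive cells, and FOSB, FOSL1, FOSL2, JUN, JUNB and JUND held 0.711%, 39.7%, 5.73%, 27.7%, 2.62% and 8.61% in resistant cells. Within their own family FOS, FOSB, FOSL1, FOSL2 and JUND held 9.90%, 5.11%, 31.7%, 53.3% and 52.8% in sensitive cells, and FOS, FOSB, FOSL1, FOSL2, JUN, JUNB and JUND held 0.308%, 1.53%, 85.8%, 12.4%, 71.2%, 6.72% and 22.1% in resistant cells, a different denominator by construction. Of 134 alternative values of single genes among the 10, 133 kept their direction and side of the threshold or stayed uncalled.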
